A study of Mus musculus with 8 samples.

Results

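The corticosteroid receptors and a set of genes that glucocorticoids induce were followed in RNA from mouse vagal ganglia. The 10 genes were chosen by name, as the receptors Nr3c1 and Nr3c2 and the targets Fkbp5, Tsc22d3, Sgk1, Zbtb16, Klf9, Ddit4, Mt1 and Mt2. All 10 were found among the 55335 genes of the deposited table, and all 10 were among the 17618 genes that passed the filter on low counts. There were 2 groups of 4 libraries. The first came from wild-type mice challenged with HDM (house dust mite, as this abbreviation is commonly read, an inhaled allergen), and the other from wild-type mice given saline. Ganglia were taken 1.5 h after challenge 4 in each group, and each library pooled 6 to 8 ganglia, which 3 to 4 mice had supplied. Nothing on age or on the route of challenge is used here, and the labels give a batch from 1 to 4 that holds 1 HDM and 1 saline pool each.

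Glucocorticoids are adrenal hormones that rise in blood with stress and with the time of day. They bind the glucocorticoid receptor (Nr3c1) and, with higher affinity, the mineralocorticoid receptor (Nr3c2), which wait in the cytoplasm with the chaperone Hsp90, move to the nucleus once bound, and there raise or lower the transcription of their targets. In nervous tissue the receptors are found in neurons and in glia, and the induced genes are widely used as a readout of hormone action.

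Library totals ran from 23952130 to 26670634 counts in HDM and from 26868337 to 31281281 counts in saline. The 10 genes had between 565 and 6036 counts in a library. Levels are given as CPM, a gene's count relative to the total of its library after TMM scaling. All 5 markers of sensory neurons and all 4 of nodose neurons were detected, and none of the marker genes of any cell type checked was at 0 in all libraries. The summed level of the 5 sensory neuron markers was 6695 to 7262 CPM in HDM and 6360 to 6563 CPM in saline, and that of 4 satellite glia markers was 903 to 1031 CPM in HDM and 1069 to 1188 CPM in saline. A list of 3 chromaffin or glomus cell markers, of which 2 passed the filter, summed to 234 to 247 CPM in HDM and 202 to 221 CPM in saline. These 3 lists did not overlap between the groups, and those of 14 other cell types did. Their part in the results below was not tested. In a whole ganglion, fewer cells of a type and less RNA per cell cannot be told apart. Of single libraries, HDM 4 stood apart with 662 CPM of 3 sympathetic neuron markers, against 222 to 254 CPM in the other HDM libraries and 109 to 283 CPM in saline. Saline 1 stood apart with 209 CPM of 3 red blood cell markers, against 37.3 to 63.1 CPM in HDM and 59.3 to 63.4 CPM in the other saline libraries.

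The genes were expressed at very different levels once exon length was taken into account. Mt2 was highest, at 46.2 ± 10.5 CPM per kilobase of exon in HDM and 47.8 ± 6.86 in saline (SD, n = 4 each). Tsc22d3 followed with 40.7 ± 1.99 in HDM and 42.1 ± 1.94 in saline. Klf9, Ddit4 and Mt1 lay between 22.0 and 34.6 CPM per kilobase in all libraries. A gap separated these 5 genes from the others, as Sgk1, the next, had 8.70 ± 0.749 CPM per kilobase in HDM and 8.90 ± 0.585 in saline. Nr3c1, Fkbp5 and Zbtb16 came next, and Nr3c2 was lowest at 3.74 ± 0.123 in HDM and 4.05 ± 0.272 in saline. The ranges over 8 libraries overlapped between most neighbours in this order. The breaks that did not overlap were those between Tsc22d3 and Klf9, Mt1 and Sgk1, and Zbtb16 and Nr3c2. Among all genes tested, Mt2, Tsc22d3, Klf9, Ddit4 and Mt1 lay at percentiles 94.9, 94.1, 92.1, 91.5 and 89.9 of the level per kilobase, and Nr3c2 at percentile 48.9. The order rests on the scaling by length. The deposited exon length of Mt1, 1246 bases, is its whole span, so any intron is counted in it. That of Mt2, 588 bases, is shorter than its span. The place of Mt1 below Mt2 depends on these lengths, since unscaled means of Mt1 were higher, at 32.5 (HDM) and 33.7 CPM (saline). In CPM alone Tsc22d3 was highest, at 177 ± 8.62 in HDM and 183 ± 8.40 in saline, and Mt2, at 27.2 ± 6.15 in HDM and 28.1 ± 4.03 in saline, was above Nr3c2 alone.

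**Figure D1:**
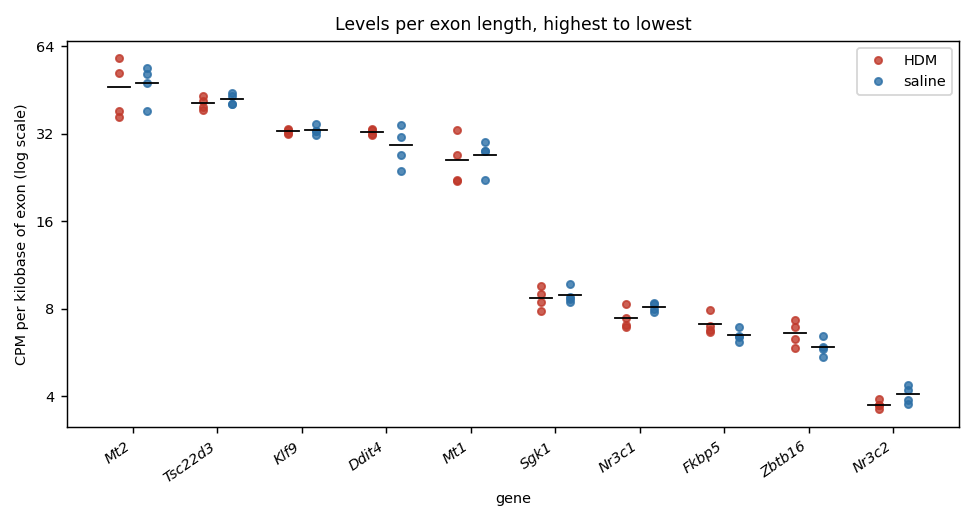
CPM per kilobase of exon (log scale) for each gene, ordered from the highest to the lowest mean; points are the 4 HDM and 4 saline libraries and bars the group means. Mt2, Tsc22d3, Klf9, Ddit4 and Mt1 lie at or above 22.0 CPM per kilobase in all 8 libraries, and Nr3c2 between 3.60 and 4.35.

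HDM challenge was compared with saline to ask whether the ganglia showed a change in corticosteroid receptors or in glucocorticoid-induced transcripts 1.5 h later. None was called. Of the 10 genes, 0 rose and 0 fell (edgeR quasi-likelihood test, adjusted p under 0.05 over all genes tested), against 1.38% of all genes. At an unadjusted p under 0.05 there were 3, namely Nr3c1 with a lower value in HDM and Fkbp5 and Zbtb16 with higher ones, beside 18.1% of all genes. DESeq2 and limma-voom also called 0 of the 10, beside 871 and 214 of the 17618 genes tested. Nr3c1 was the 1 gene at an unadjusted p under 0.05 in each, beside 16.8% and 18.0% of all genes. With the replicate block 0 of the 10 passed, against 4.05% of all genes. For 0 of the 10 did the CPM of the groups not overlap, against 10.6% of all genes. The log2 fold changes had a median of −0.04 and a median size of 0.08, against −0.006 and 0.10 over all genes. The 95% intervals of the fold, HDM over saline, lay between 0.79 and 1.27 for all 10 genes.

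**Figure D2:**
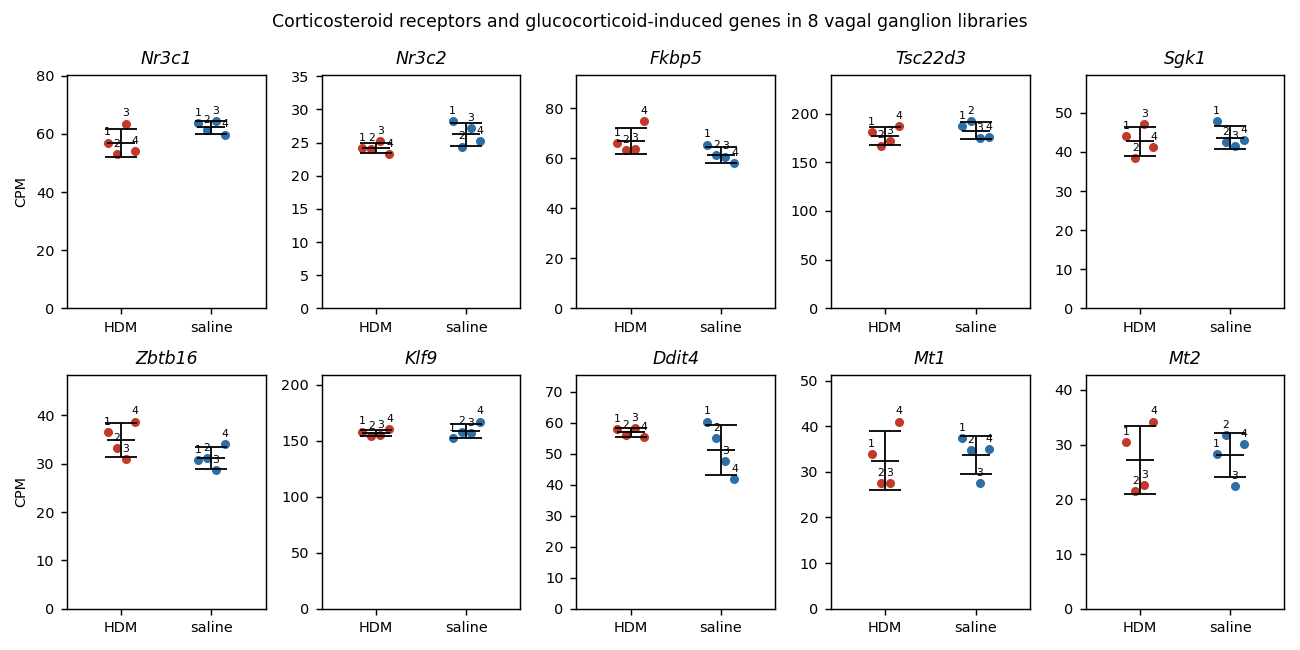
CPM of each gene in the 4 HDM and 4 saline libraries (points, numbered by replicate, which is also the batch) with the group mean and SD (bars). The groups overlap for all 10 genes; in HDM, Mt1 and Mt2 spread most and Klf9 least relative to their means.

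The receptors had slightly lower values in HDM. Nr3c1 (ENSMUSG00000024431, GRCm38 chromosome 18, 39410545 to 39519421, minus strand) had 57.0, 52.9, 63.5 and 54.0 CPM in HDM 1 to 4, against 63.8, 61.3, 64.3 and 59.7 CPM in saline 1 to 4. HDM 3 reached the saline range, and the other HDM libraries were below every saline library. The log2 fold change was −0.13 (SE 0.058, 95% interval −0.26 to −0.01, unadjusted p = 0.0401, edgeR adjusted p = 0.251), and HDM was lower in 4 of 4 batches. After a correction for transcript GC content it was −0.06 (edgeR adjusted p = 0.724). The transcript of Nr3c1 has a GC content of 42.2%, the lowest of the 10. Nr3c2 (ENSMUSG00000031618, chromosome 8, 76899442 to 77245012, plus strand) had 24.2, 24.1, 25.2 and 23.3 CPM in HDM, against 28.2, 24.4, 27.2 and 25.2 CPM in saline. HDM 4 was lowest and saline 1 highest, and HDM 3 lay above saline 2. The log2 fold change was −0.11 (SE 0.062, edgeR adjusted p = 0.347), with HDM lower in 4 of 4 batches. Per kilobase of exon, Nr3c1 was expressed at 1.98 ± 0.112 times the level of Nr3c2 in HDM and 2.00 ± 0.0882 times in saline (SD, n = 4 each). This ratio ran from 1.85 to 2.12 in HDM and from 1.91 to 2.12 in saline, so the balance of the receptors overlapped fully between the groups.

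Fkbp5 and Zbtb16 are often used as markers of glucocorticoid action. Fkbp5 encodes an immunophilin that joins the receptor complex with Hsp90 and lowers the receptor's affinity for hormone. Fkbp5 (ENSMUSG00000024222, chromosome 17, 28399094 to 28517527, minus strand) had 65.9, 63.1, 63.8 and 74.7 CPM in HDM, against 65.4, 61.1, 60.6 and 58.0 CPM in saline. HDM 4 was the highest library and saline 4, of the same batch, the lowest, while saline 1 lay above HDM 2 and HDM 3. The log2 fold change was 0.13 (SE 0.059, unadjusted p = 0.0497, edgeR adjusted p = 0.275), with HDM higher in 4 of 4 batches. Without HDM 4 it was 0.07 (edgeR adjusted p = 0.584), and without batch 4 it was 0.04. HDM 4 is also the library with the high sympathetic neuron markers, and their part in this value was not tested. Zbtb16, which encodes a zinc finger transcription factor, had 36.6, 33.3, 31.0 and 38.7 CPM in HDM, against 30.7, 31.2, 28.7 and 34.1 CPM in saline (ENSMUSG00000066687, chromosome 9, 48654297 to 48836222, minus strand). HDM 4 was again highest, and saline 4 lay above HDM 2 and HDM 3. Its log2 fold change of 0.16 (SE 0.074, unadjusted p = 0.0474, edgeR adjusted p = 0.269) was the largest of the 10 in size, with HDM higher in 4 of 4 batches, and it was 0.10 after the GC correction.

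Tsc22d3, Sgk1 and Klf9 showed differences near 0. Tsc22d3, also called Gilz, encodes a leucine zipper protein through which glucocorticoids restrain inflammatory signalling. Tsc22d3 (ENSMUSG00000031431, chromosome X, 140539528 to 140600659, minus strand) had 181, 167, 172 and 187 CPM in HDM, against 187, 192, 175 and 176 CPM in saline. The groups ran over nearly the same range (log2 fold change −0.05, SE 0.048, edgeR adjusted p = 0.624). Klf9, which encodes a Krüppel-like transcription factor, had 158, 154, 155 and 160 CPM in HDM, against 152, 158, 157 and 167 CPM in saline (ENSMUSG00000033863, chromosome 19, 23141226 to 23168134, plus strand). Its coefficient of variation between pools was 1.77% in HDM, the lowest of the 10 there, and 3.79% in saline, where Nr3c1 had 3.45%. Its fold of 0.99 had a 95% interval of 0.93 to 1.05 (edgeR adjusted p = 0.894). Sgk1, a kinase induced by glucocorticoids and mineralocorticoids that raises sodium transport in epithelia, had 44.0, 38.4, 47.0 and 41.3 CPM in HDM, against 47.8, 42.4, 41.4 and 43.0 CPM in saline (ENSMUSG00000019970, chromosome 10, 21882184 to 21999903, plus strand). The highest and the next highest library came from different groups, and the log2 fold change was −0.03 (SE 0.066, edgeR adjusted p = 0.839).

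The start windows of these genes were searched for the sequence that binds the receptor, to show where the canonical element lies. RefSeq (GRCm38.p6) windows of 300 bases, from 250 before to 50 after a start site, were at hand for 8 of the 10 genes, with 15 windows in all, 6 of them for Sgk1 and 3 for Tsc22d3. The full palindromic element, AGAACA, then any 3 bases, then TGTTCT, reads the same on both strands. It was in 3 of 32851 windows, or 0.00913%, and 1 of these 3 is a start window of Sgk1, at chr10:21993701-21993715, with its first base at −189 from that start. The shorter site AGAACA on either strand, of which the full element holds a pair, was in 19% of windows. Among the other 14 windows it occurred in 2 of Sgk1 and 1 of Tsc22d3. A match describes letters only, and the absence of one says only that these letters are not in this window. The 250 bases before this Sgk1 start (chr10:21993640-21993889, plus strand, none of them in an exon of Sgk1) are shown because they hold the element, in capitals, in a gene whose log2 fold change was −0.03.
Sgk1: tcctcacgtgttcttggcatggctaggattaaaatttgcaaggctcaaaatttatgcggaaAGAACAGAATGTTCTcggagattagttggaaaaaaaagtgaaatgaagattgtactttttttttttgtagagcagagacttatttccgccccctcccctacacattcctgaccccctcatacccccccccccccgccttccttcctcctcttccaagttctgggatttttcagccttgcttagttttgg

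Ddit4, also called Redd1, encodes an inhibitor of the growth kinase mTORC1 and is induced by glucocorticoids, hypoxia and other stress. Ddit4 (ENSMUSG00000020108, chromosome 10, 59949669 to 59951834, minus strand) had 58.0, 56.0, 58.3 and 55.5 CPM in HDM, against 60.4, 55.0, 47.6 and 41.9 CPM in saline. The 4 HDM pools were nearly alike, whereas the saline pools were spread, with saline 1 the highest library of all and saline 4 the lowest. The coefficient of variation was 2.41% in HDM and 15.9% in saline, against medians of 4.45% and 5.18% over 2578 tested genes of similar level. The log2 fold change was 0.15 (SE 0.087, edgeR adjusted p = 0.371), and HDM was higher in 3 of 4 batches. It was 0.07 without saline 4, 0.24 without saline 1, and 0.05 after the GC correction. Ddit4 has the highest transcript GC content of the 10, 57.9%.

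**Figure D3:**
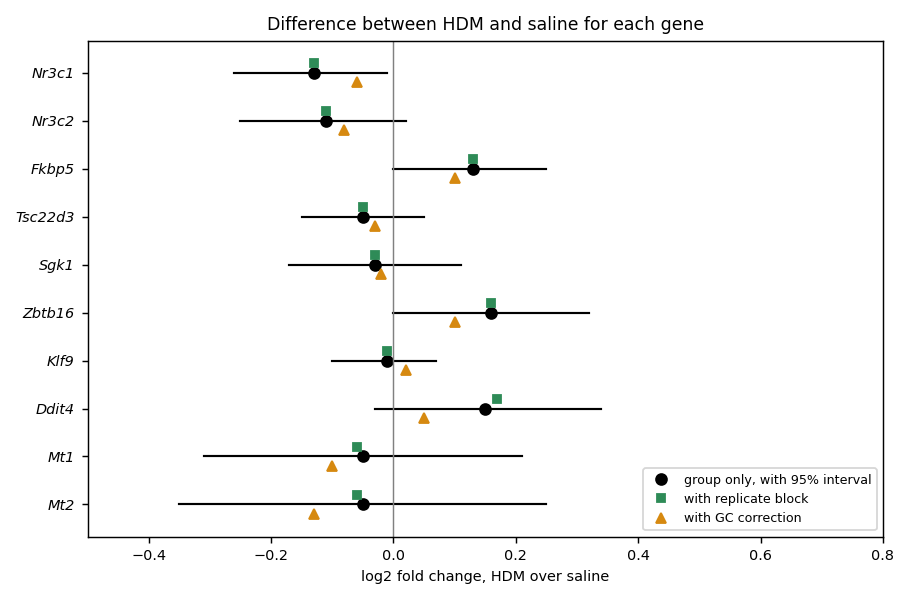
Log2 fold change of each gene, HDM over saline: black points with 95% intervals from the fit with group alone, squares with the replicate block added, triangles with the GC correction. All points lie between −0.13 and 0.17, and no value passed the threshold in any of the 3 fits.

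Mt1 and Mt2 encode metallothioneins, small proteins rich in cysteine that bind zinc and copper, and their genes respond to metals as well as to glucocorticoids. They lie beside each other on chromosome 8, Mt2 (ENSMUSG00000031762) at 94172664 to 94173568 and Mt1 (ENSMUSG00000031765) at 94179082 to 94180327, both on the plus strand. Mt1 had 33.8, 27.6, 27.5 and 41.0 CPM in HDM, against 37.4, 34.7, 27.6 and 34.9 CPM in saline. HDM 4 was highest, and HDM 2, HDM 3 and saline 3 formed a low set at nearly the same level. Mt2 had 30.4, 21.5, 22.6 and 34.2 CPM in HDM, against 28.2, 31.7, 22.4 and 30.1 CPM in saline. HDM 4 was again highest, and the same 3 libraries were low. The spread between pools was the widest of the 10 genes in HDM, with coefficients of variation of 19.7% for Mt1 and 22.6% for Mt2 in HDM, against 12.5% and 14.4% in saline. Tested genes of similar level had medians of 5.19% in HDM and 5.89% in saline around Mt1 (2694 genes). The log2 fold changes were −0.05 for Mt1 (SE 0.120, edgeR adjusted p = 0.858) and −0.05 for Mt2 (SE 0.138, edgeR adjusted p = 0.890). Without HDM 4 they were −0.19 and −0.18, and without HDM 2 they were 0.02 and 0.05. After the GC correction they were −0.10 and −0.13. Reads of such similar short genes may have been dropped or shared in counting, and Mt2 overlaps the antisense gene Gm45774 on the opposite strand, so their levels are uncertain.

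The core of the metal response element, searched as TGCACNC and TGCGCNC on both strands, occurred 4 times in the RefSeq window of Mt2 and 3 times in that of Mt1. Of all windows, 25.7% held at least 1 such match and 1.97% held 3 or more. In Mt2 the matches began at −223, −128, −50 and 5 from the start site, and in Mt1 at −23, 3 and 21. These neighbours had the widest spread between HDM pools, so part of the window is shown for both, with matches in capitals. The match that began at 5 in Mt2 and those at 3 and 21 in Mt1 lie past the bases shown. The bases shown end before the RefSeq start or the first deposited exon, whichever comes first. They span 250 bases for Mt2 (chr8:94172368-94172617) and 243 bases for Mt1 (chr8:94178839-94179081), both on the plus strand.
Mt2: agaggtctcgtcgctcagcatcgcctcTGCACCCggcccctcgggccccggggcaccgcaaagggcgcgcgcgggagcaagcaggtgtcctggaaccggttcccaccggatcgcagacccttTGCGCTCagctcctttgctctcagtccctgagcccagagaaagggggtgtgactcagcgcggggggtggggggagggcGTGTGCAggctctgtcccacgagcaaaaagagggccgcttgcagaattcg
Mt1: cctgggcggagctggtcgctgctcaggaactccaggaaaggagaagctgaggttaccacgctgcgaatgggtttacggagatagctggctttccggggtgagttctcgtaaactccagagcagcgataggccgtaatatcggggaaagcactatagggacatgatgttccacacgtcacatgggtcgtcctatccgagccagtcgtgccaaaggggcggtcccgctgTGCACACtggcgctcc

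The pools were then compared by which genes were high or low together. HDM 4 was the highest of all 8 libraries for 4 genes, Fkbp5, Zbtb16, Mt1 and Mt2, and the lowest for Nr3c2. HDM 2 was the lowest for 4, namely Nr3c1, Tsc22d3, Sgk1 and Mt2. Saline 1 was the highest for 3, namely Nr3c2, Sgk1 and Ddit4. Over 8 libraries Mt1 and Mt2 had a Pearson r of 0.93 (exact permutation p = 0.00412, adjusted p = 0.185 over 45 pairs of genes) and a Spearman rho of 0.71 (exact permutation p = 0.0576, adjusted p = 0.340). Without HDM 2 and HDM 3, the libraries farthest from the median of Mt1, r was 0.87 (exact permutation p = 0.0472). The within-batch differences of Mt1 and Mt2 had the same sign in 2 of 4 batches, and a batch of 2 libraries gives no correlation of its own. Nr3c1 and Zbtb16 ran in opposite directions, with r of −0.80 (exact permutation p = 0.0192, adjusted p = 0.189) and rho of −0.86 (exact permutation p = 0.0107, adjusted p = 0.161), and r was −0.96 without HDM 2 and HDM 4. Their within-batch differences had opposite signs in every batch, as Nr3c1 was lower and Zbtb16 higher in HDM in each of them. This sign pattern follows from the 2 group differences and is no separate sign of co-variation. After subtraction of the group means r of this pair was −0.67. Of the 45 pairs, 7 had an unadjusted p under 0.05 by Pearson's r and 0 passed after adjustment by either measure, so no pair is called here.

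**Figure D4:**
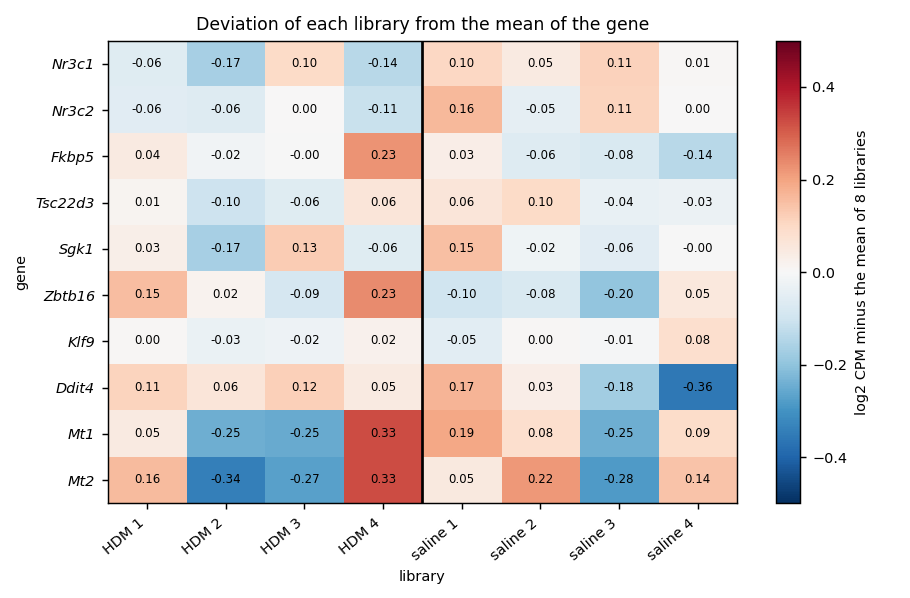
Log2 CPM of each gene (rows) in each library (columns, the 4 HDM libraries left of the line and the 4 saline libraries right of it) minus the gene's mean over 8 libraries. HDM 4 is the highest library for Fkbp5, Zbtb16, Mt1 and Mt2, and Ddit4 is lowest in saline 4.

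Among 10976 genes at a mean log2 CPM of at least 3, those whose profile over the 8 libraries was most like that of Fkbp5 were Plpp2, Sulf2, Mcm6, Otulinl and Nf2. Their Pearson r with Fkbp5 was 0.95 to 0.96 and their Spearman rho 0.81 to 0.95, given as a description since they were picked as the highest of many. Each had its highest HDM value in HDM 4. Sulf2, for example, which encodes an enzyme that trims sulfate from heparan sulfate, had 49.2 CPM there, against 41.8 to 42.5 CPM in the other HDM libraries. None passed between the groups (log2 fold changes 0.08 to 0.14, edgeR adjusted p = 0.231 to 0.655).

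Other genes of the pathway were read from 9 lists, with 120 genes in all, of which 95 were tested. Of these, 3 rose and 1 fell, beside 1.38% of all genes called in either direction. With the replicate block 8 rose and 1 fell, beside 4.05%. At an unadjusted p under 0.05 there were 17 of the 95, beside 18.1% of all genes, which is also the share to set beside the unadjusted counts of the single lists. The median log2 fold change was −0.01, beside −0.006 over all genes. The shares of 1.38% and, with the block, 4.05% stand beside the called counts of the single lists. The lists were described by counts and had no test of their own.

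**Figure D5:**
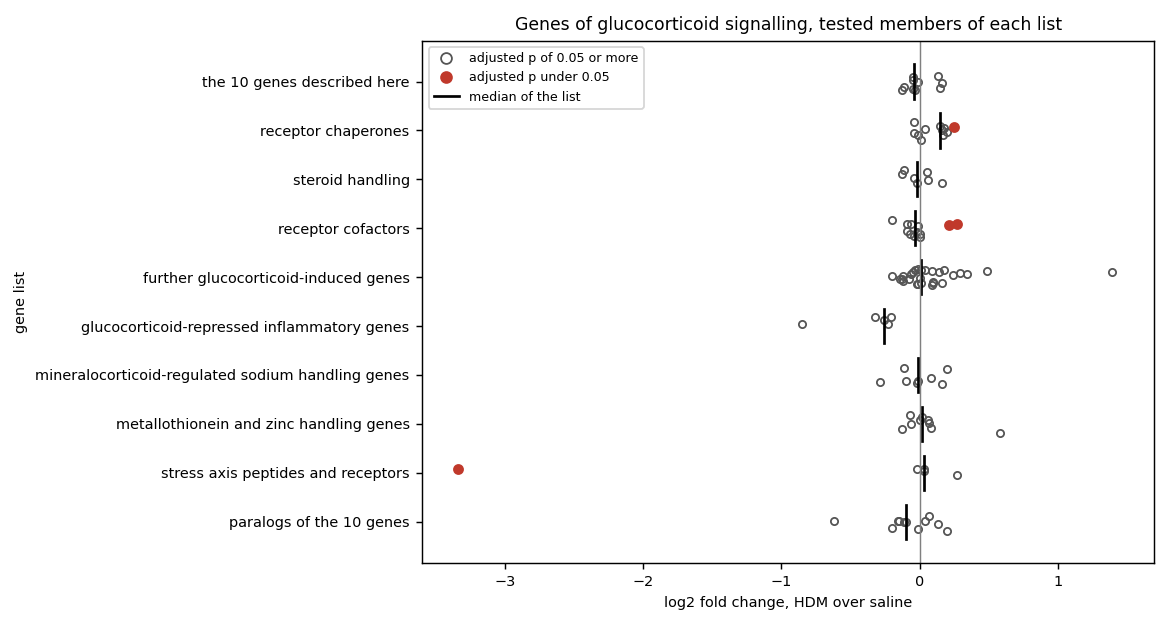
Log2 fold change, HDM over saline, of the tested genes of each list (circles, filled where the edgeR adjusted p is under 0.05) with the list's median (bar). Bag1, Smarca4 and Pomc are among the filled circles; the median of the receptor chaperones is 0.15 and that of the 10 genes described here is −0.04.

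Of 11 chaperones that hold the receptors, 1 rose, or 4 with the replicate block, beside 216 and 531 of 17618 over all genes. At an unadjusted p under 0.05 there were 6, beside 18.1% of all genes. A positive log2 fold change was found for 8 of the 11, beside 8551 of 17618 over all genes, and the median was 0.15. The 1 that rose was Bag1, a cochaperone of Hsp70 that also binds the glucocorticoid receptor, with 115, 112, 108 and 112 CPM in HDM, against 99.3, 99.4, 89.7 and 87.3 CPM in saline. All HDM libraries lay above all saline libraries (log2 fold change 0.25, SE 0.051, edgeR adjusted p = 0.0332). The call was lost without HDM 1 (edgeR adjusted p = 0.121), HDM 2 (0.124), HDM 4 (0.0872), saline 3 (0.133) or saline 4 (0.0530), without any 1 batch (0.0877 to 0.160), and after the GC correction (0.176). Fkbp4, the immunophilin that promotes receptor transport and in this role opposes Fkbp5, averaged 309 ± 15.5 CPM in HDM and 270 ± 16.5 CPM in saline (SD, n = 4 each), a log2 fold change of 0.20 whose edgeR adjusted p was 0.0792, or 0.0240 under the replicate block, and it was 0.12 after the GC correction. For Hsp90ab1, the constitutive cytosolic Hsp90, the value was 0.16 (edgeR adjusted p = 0.0879, or 0.0382 under the block), and for Stip1, which links Hsp70 to Hsp90, 0.15 (0.110, or 0.0469). With the GC correction, Hsp90ab1 had 0.15 and Stip1 0.12 (edgeR adjusted p = 0.264 and 0.296). The inducible Hsp90aa1 had −0.04 (0.725), or 0.03 after the GC correction. The sensory neuron markers were higher in HDM without overlap, and their part in these values was not tested.

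Of 12 receptor cofactors, 2 rose, beside 216 of 17618 over all genes. Smarca4 was 1 of the 2. Smarca4, the ATPase of the SWI/SNF chromatin remodeler, averaged 113 ± 5.28 CPM in HDM and 93.3 ± 4.85 CPM in saline (SD, n = 4 each), a difference of 0.27 on the log2 scale (edgeR adjusted p = 0.0234). After the GC correction it was 0.18 (edgeR adjusted p = 0.229). Smarca4 was not called without HDM 1, HDM 2, HDM 4, saline 2 or saline 3 (edgeR adjusted p = 0.0518 to 0.119). Nor was it called without any 1 batch (0.0786 to 0.160) or with HDM 4 and saline 1 left out together (0.0698). The 10 that did not pass had log2 fold changes of −0.20 to 0.00, with Nrip1, a corepressor, at −0.20 (edgeR adjusted p = 0.336). Grip1 in this list is the glutamate receptor interacting protein and shares only an older alias with the cofactor Ncoa2, so it is no cofactor of the receptor.

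Of 28 further glucocorticoid-induced genes tested with edgeR, 0 passed and 3 had an unadjusted p under 0.05. In all, 16 had a positive and 12 a negative log2 fold change, and the median was 0.01. The 3 with the smallest p were Map3k6 at 0.29, Cebpd, a transcription factor of the acute phase response, at 0.34, and Nedd9 at −0.20 (edgeR adjusted p = 0.167, 0.192 and 0.192). After the GC correction Map3k6 had 0.17. Of 12 inflammatory genes that glucocorticoids repress, 5 were tested and 0 passed, with 0 at an unadjusted p under 0.05. All 5 had negative log2 fold changes, beside 9067 of 17618 over all genes. The other 7, among them Il1b, Il6 and Tnf, did not pass the filter on low counts. Ptgs2, the inducible cyclooxygenase, had 0.795, 0.152, 0.556 and 0.340 CPM in HDM, against 1.91, 0.478, 0.445 and 0.519 CPM in saline. Saline 1 alone was high. Saline 1 also had the highest summed markers of fibroblasts (768 CPM, against 484 to 541 in HDM and 539 to 606 in the other saline libraries), endothelial cells (117 CPM, against 84.1 to 97.7 in HDM and 77.9 to 85.2 in the other saline libraries) and macrophages (42.7 CPM, against 26.2 to 33.3 in HDM and 22.3 to 31.0 in the other saline libraries), and their part in these values was not tested. Ccl2, a monocyte chemokine, had −0.32 and Vcam1, an adhesion molecule, −0.26 (edgeR adjusted p = 0.493 and 0.636). Vcam1 too was highest in saline 1, at 22.1 CPM, and its log2 fold change without that library was 0.13. Icam1 was also highest in saline 1, at 4.42 CPM, against 1.48 to 2.58 CPM in HDM and 1.44 to 2.10 CPM in the other saline libraries. Ccl2 had only 17 to 37 counts in a library and Ccl7 only 5 to 19. Without saline 1 the log2 fold change of Ptgs2, −0.85 (SE 0.541, edgeR adjusted p = 0.432), was −0.09.

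Of 7 genes of steroid handling tested with edgeR, 0 passed and 0 had an unadjusted p under 0.05. Hsd11b1, the enzyme that regenerates active glucocorticoid inside cells, averaged 2.49 ± 0.364 CPM in HDM and 2.69 ± 0.511 CPM in saline, which gave −0.11 on the log2 scale (SD, n = 4 each; edgeR adjusted p = 0.782). Hsd11b2, which inactivates the hormone in mineralocorticoid target cells, had 0 to 5 counts in a library and was not tested. The 3 with the smallest p were H6pd at 0.16, Abcb1a, an efflux pump, at 0.05 and Akr1c14 at −0.13 (edgeR adjusted p = 0.394, 0.740 and 0.762). After the GC correction these were 0.06, 0.10 and −0.04. Of 8 mineralocorticoid-regulated sodium handling genes tested, 0 passed and 1 had an unadjusted p under 0.05. Atp1b1, a beta subunit of the sodium pump, had a log2 fold change of 0.08, and Wnk1, a kinase that regulates salt transport, −0.10 (edgeR adjusted p = 0.291). Of 9 metallothionein and zinc handling genes tested, 0 passed and 2 had an unadjusted p under 0.05, which were Slc39a10 and Slc39a7. Mt3, the metallothionein of neural tissue, had 69.8 ± 1.98 CPM in HDM, against 66.0 ± 4.93 CPM in saline, which gave 0.08 on the log2 scale (edgeR adjusted p = 0.467), or −0.06 after the GC correction. The metal-responsive transcription factor Mtf1 had −0.06, the zinc exporter Slc30a1 0.02, and the zinc transporters Slc39a10 and Slc39a7 −0.13 and 0.58 (edgeR adjusted p = 0.122 and 0.140). Paralogs of the 10 genes had 0 calls of 11 tested, or 1 with the replicate block, which was Fkbp4. At an unadjusted p under 0.05 there were 2, Fkbp4 and Sgk3. Sgk3, a kinase related to Sgk1, had −0.20 (edgeR adjusted p = 0.254). Tsc22d2 had −0.11 (edgeR adjusted p = 0.339).

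Pomc, the precursor of the pituitary hormone ACTH, was the gene of the lists with the largest difference in size. It had 10, 6, 10 and 10 counts in HDM, against 7, 72, 172 and 184 counts in saline, or 0.418, 0.228, 0.397 and 0.378 CPM in HDM, against 0.258, 2.29, 5.88 and 5.97 CPM in saline. Saline 1 lay within the HDM range, and the other saline libraries were far above it, so the groups overlapped. The log2 fold change was −3.34 (SE 0.687, edgeR adjusted p = 0.0345, or 0.0152 under the block). The call was lost without HDM 1 (edgeR adjusted p = 0.123), HDM 2 (0.147), HDM 4 (0.0950), saline 2 (0.0518), saline 3 (0.132) or saline 4 (0.0550), without batch 2 (0.190), 3 (0.145) or 4 (0.130), in limma-voom (0.249) and after the GC correction (0.147). DESeq2 gave Pomc no adjusted p, and the filter of 1 CPM in 4 libraries removed it. Of the 5 tested genes for stress axis peptides and receptors, Crhr2, the receptor of urocortins, averaged 67.5 ± 8.07 CPM in HDM and 55.8 ± 1.09 CPM in saline (SD, n = 4 each). Its log2 fold change was 0.27 (edgeR adjusted p = 0.0678, or 0.0446 under the block), and that of the vasopressin receptor Avpr1a was 0.03. After the GC correction Crhr2 had 0.19 (edgeR adjusted p = 0.297). Crh had 0 to 4 counts in a library and was not tested.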

How the data were processed

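RNA was measured in 8 libraries, 4 HDM and 4 saline, each from pooled ganglia. The deposited table holds raw counts per gene, made with featureCounts on GRCm38 (mm10) per the submitters' processing notes, from paired reads of 50 bp of stranded mRNA libraries per the labels' protocols. Neither the aligner nor a tool version nor how strand was set is stated in the sources at hand, so reads of overlapping genes on opposite strands may be counted together; Fkbp5, Mt2 and Nr3c2 have such a neighbour. The exon length per gene is a deposited column too. Symbols and transcript GC content come from GENCODE M21, in which all 10 genes have the span of the deposited table.

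Genes were filtered with filterByExpr, scaled by TMM and compared with edgeR 4.0.16 (R 4.3.3), using its quasi-likelihood F-test on a model of group alone and Benjamini-Hochberg adjustment over 17618 genes. Alternatives were other size factors, 2 filters, DESeq2 1.42.0, limma-voom (limma 3.58.1), a threshold of 0.10, the batch label as a replicate block, a GC correction (a spline with 4 degrees of freedom per library, fitted where the mean log2 CPM exceeded 3), and leaving out each library or batch. Leaving out HDM 4 and saline 1 together was added after seeing the data. The batch labels pair the libraries; same-numbered libraries had deviations from their group means that correlated by −0.0454 to 0.206 over genes, and 2 of 8 libraries correlated best with their own number. Replicate pools differed by far more than counting noise, and the p-values set the difference between groups against the spread between pools.

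The genes and lists were chosen with earlier results of these data known. The text names all 10 genes, up to 3 genes of each list with the smallest p, and the 5 genes most like Fkbp5. Hsp90aa1, Stip1, Hsd11b1, Hsd11b2, Mtf1, Slc30a1, Crh, Icam1, Ccl7 and the untested inflammatory genes were named beyond this rule, after their values were seen. Some results that the rule would name are not reported here. Floors of 3 counts of a library total (0.0959 to 0.125 CPM) cover counting error only.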

Additional observations from a re-analysis of the deposited data

Results flagged for a closer look

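Within groups of 4, a library was taken as standing apart where its gap to the nearest of the others, as a share of the group's range, exceeded Dixon's 95% critical value. Of 78 groups tested over 39 named genes, 7 did so, and chance gives about 1 in 20. None was one of the 10 receptor and target genes. In HDM, Fkbp4 was high in HDM 2 (332 CPM, against 298 to 303), and Sulf2 and Mcm6 were high in HDM 4 (49.2 CPM, against 41.8 to 42.5, and 11.3 CPM, against 9.62 to 9.67). In saline, Ptgs2 and Plpp2 were high in saline 1 (1.91 CPM, against 0.445 to 0.519, and 16.9 CPM, against 15.9 to 16.0), Akr1c14 in saline 4 (3.83 CPM, against 3.17 to 3.22), and Slc39a7 in saline 2 (1.94 CPM, against 1.43 to 1.47). Sulf2, Mcm6 and Plpp2 were picked for their likeness to Fkbp5, which was itself highest in HDM 4.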

How the results depend on the processing

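In the 21 alternative fits of each of the 10 genes, 210 values in all, 0 passed the threshold, so the count of 0 called genes held in each. Where a fit called 0 of all genes, as listed below, the count of 0 follows from that and adds nothing. The log2 fold changes of Nr3c1, Nr3c2, Fkbp5, Tsc22d3, Zbtb16 and Ddit4 kept their sign in all of these, while 13 values of the other 4 genes changed sign. Klf9 was 0.02 with the GC correction and 0.02 with replicate block and GC correction, and Sgk1 was 0.03 with HDM 4 and saline 1 left out together. Without single libraries or batches, Klf9 ran from −0.04 to 0.01, Sgk1 from −0.11 to 0.01, Mt1 from −0.19 to 0.03 and Mt2 from −0.18 to 0.11. The count of all called genes, 244 as reported, was 722 without a filter, 871 in DESeq2, 713 with the replicate block, 0 with the GC correction (2048 at an unadjusted p under 0.05), 29 with replicate block and GC correction, 135 with HDM 4 and saline 1 left out together and 709 at a threshold of 0.10, and with 1 library or 1 batch left out it lay between 0 and 376. It was 0 without HDM 1, HDM 2, saline 3 or batch 2. In the wider lists the count of 4 was 9 in DESeq2, 9 with the replicate block, 0 with the GC correction, 1 with replicate block and GC correction, 2 with HDM 4 and saline 1 left out together and 7 at a threshold of 0.10, and with 1 library or 1 batch left out it lay between 0 and 5. The replicate block changed no call of the 10 genes. Subtracting group means, or leaving out the 2 libraries farthest from the median, left 0 of 45 pairs past adjustment, with 10 pairs at an unadjusted p under 0.05 after the means were subtracted. The highest gene was 12.1 times the lowest per kilobase, and 7.13 times without length scaling, where Tsc22d3 in place of Mt2 was highest. The causes were not tested. With 4 pools a group, the intervals of the 10 genes set the limit on what could be seen, and the wide spread of Mt1 and Mt2 makes theirs the widest.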
